A study of Galdieria sulphuraria with 9 samples.

Results

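In the red alga *Galdieria sulphuraria*, 48 genes stood apart in the second cold sampling alone, 33 raised and 15 lowered. They were selected on their measured levels, so the levels that chose them are a description with no test. Counts per gene were scaled to a library total of 1000000 (CPM), and L was log2(CPM + 1). A gene was taken when its mean L in the second cold sampling lay at least 1 above, or at least 1 below, the mean of each of the other 3 samplings, while those 3 means spanned less than 0.7. Distance below is the gap on the log2 scale between the second cold sampling and the nearest of the other means. Of the 6538 genes in the files, 5823 reached a mean of 10 CPM in at least 1 sampling and could qualify, so the 48 are a small part of the transcriptome. A further 33 genes passed the distance upwards and 26 downwards, but were left out because their other samplings spanned 0.7 or more. The same rule turned on the other samplings gave 1 raised and 3 lowered genes for H-42, 28 and 56 for C-28.1, and 6 and 2 for H-46.

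All libraries came from wild type strain 074W, grown as photoautotrophic batch cultures under constant light and shaking, and the same replicate cultures (A, B and C) were moved along one timeline. H-42 (cultures B and C) was taken after 2 weeks at 42 °C, C-28.1 (A, B and C) after 48 h at 28 °C, H-46 (A and C) after 48 h at 46 °C, and C-28.2 (A and C) after another 48 h at 28 °C. C-28.2 was therefore both the second cold exposure and the last time point. It also followed 48 h at 46 °C, where C-28.1 followed 2 weeks at 42 °C. Effects of a repeated cold shift, of culture age and of the preceding heat cannot be told apart. Total counts ranged from 4389066 (H-46 A) to 8989387 (H-42 B). Across expressed genes, the difference of a library from the mean of all the other libraries followed gene length. Its Spearman rho was alike within H-42 (-0.21 and -0.25) and within C-28.1 (0.27 to 0.33). The rho differed between the cultures A and C of H-46 (0.33 and -0.26) and of C-28.2 (0.01 and -0.43). In bulk RNA, fewer cells in a given state and less RNA per cell cannot be told apart.

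*G. sulphuraria* is a unicellular alga of hot, acidic springs, for which 28 °C is cold. A shift to low temperature slows enzymes and translation, stiffens membranes and weakens the folding of some proteins, and algae and other microbes answer it by changing transcripts for membrane lipids, protein folding and the translation machinery. When a culture is cooled again after a return to heat, its transcripts may or may not repeat those of the first exposure, and the genes described here are those whose level was near the same in the first cold and in both heat samplings and moved away only in the second cold. Most of them have no product name here. A name was at hand for 1164 of all genes and for 8 of the 48, of which 3 are hypothetical proteins, and the share with a name was 21.2% of the raised, 6.67% of the lowered and 19.8% of all expressed genes. Genes without a product name are given by their identifier only.

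**Figure D1:**
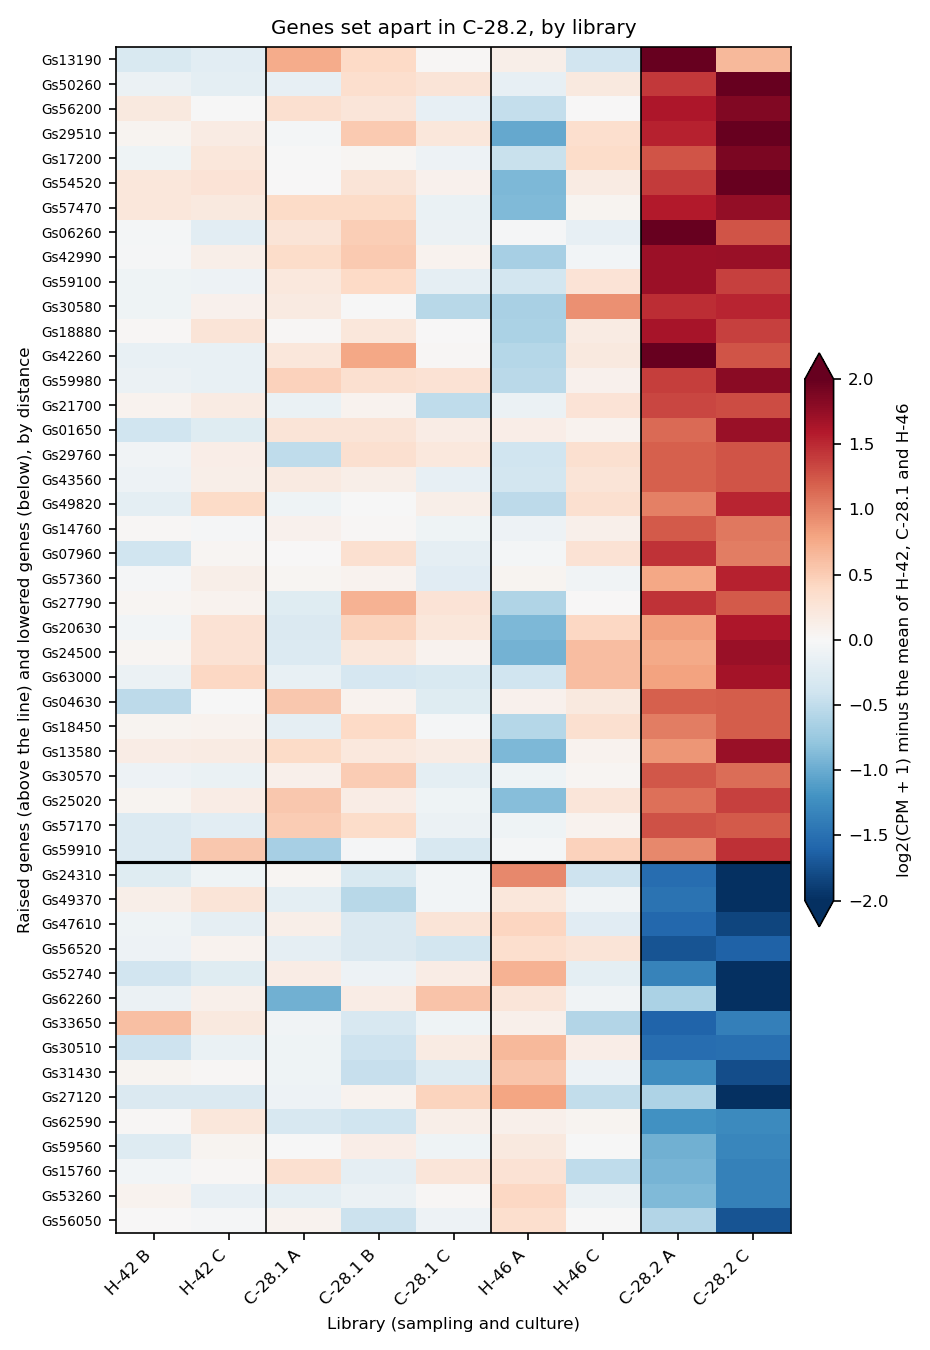
Level of each of the 48 genes (rows, raised above the line and lowered below it, each ordered by distance) in the 9 libraries (columns). Colour gives log2(CPM + 1) minus the mean of the H-42, C-28.1 and H-46 means, from -2 to 2. The 2 right-hand columns carry most of the colour by construction of the rule, and among the other columns H-46 A most often leans the opposite way, with 29 of 33 raised genes lower and 15 of 15 lowered genes higher there than in H-46 C.

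The raised genes with a product name that is not hypothetical come from protein folding, fatty acid synthesis, inositol metabolism and vesicle transport, with 1 gene each. Gs17200 encodes prefoldin subunit 2, a part of the complex that hands newly made cytoskeletal proteins to the chaperonin. It was measured at 86.9 (culture A) and 134 CPM (C) in C-28.2, beside 33.5 (B) and 41.9 (C) in H-42, 35.2 (A), 36.6 (B) and 33.0 (C) in C-28.1, and 25.8 (A) and 46.1 (C) in H-46. The C-28.2 mean of 111 ± 33.7 CPM (SD, n = 2) was 2.94-fold that of the highest other sampling, and no library of the other samplings reached either C-28.2 library. Across the first 3 samplings its means differed by only 0.12 on the log2 scale.

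Gs42260 encodes a 3R-hydroxymyristoyl ACP dehydrase isoform, an enzyme that removes water from the growing acyl chain in the elongation cycle of fatty acid synthesis. Its levels were 373 (culture A) and 207 CPM (C) in C-28.2, beside 77.4 (B) and 78.0 (C) in H-42, 100.5 (A), 148 (B) and 87.2 (C) in C-28.1, and 57.6 (A) and 98.5 (C) in H-46. Both C-28.2 libraries were above all others, culture A more than culture C, and among the others C-28.1 B was the highest. The study lists a region of alternative transcript start or end in this gene, with coverage higher in heat than in cold. The counts per gene used here do not separate such regions. Gs07960 encodes a myo-inositol 2-dehydrogenase, which oxidises the sugar alcohol inositol in the first step of its breakdown. The libraries gave it 55.3 (culture A) and 41.1 CPM (C) in C-28.2, beside 14.7 (B) and 20.3 (C) in H-42, 19.8 (A), 24.9 (B) and 17.3 (C) in C-28.1, and 19.1 (A) and 24.2 (C) in H-46. Its distance was 1.11, and it was scarce at every sampling, with 84 to 291 counts per library. Gs57360 encodes a protein like GOT1, which in budding yeast is a small membrane protein of transport between the endoplasmic reticulum and the Golgi. Levels were 45.8 (culture A) and 78.8 CPM (C) in C-28.2, beside 26.0 (B) and 28.6 (C) in H-42, 27.1 (A), 27.7 (B) and 22.5 (C) in C-28.1, and 27.6 (A) and 25.3 (C) in H-46. The other samplings were nearly level in this gene (span 0.09), and culture C was the higher of the C-28.2 libraries.

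The raised genes with the largest distances were Gs13190, Gs50260 and Gs56200. Gs13190 has no product name here. The values were 1418 (culture A) and 176 CPM (C) in C-28.2, beside 90.8 (B) and 96.4 (C) in H-42, 188 (A), 148 (B) and 114 (C) in C-28.1, and 122 (A) and 85.1 (C) in H-46. C-28.2 A was 8.04-fold above C-28.2 C, which lay within the range of C-28.1, so its distance rested on culture A. It was the 1 raised gene whose C-28.2 libraries overlapped the others. Without C-28.2 A, and also without C-28.1 C or H-46 A, it no longer qualified. Gs50260 is a hypothetical protein gene. It was measured at 41.2 (culture A) and 79.1 CPM (C) in C-28.2, beside 13.7 (B) and 12.9 (C) in H-42, 13.2 (A), 19.1 (B) and 18.1 (C) in C-28.1, and 13.2 (A) and 17.2 (C) in H-46. Its C-28.2 mean of 60.2 ± 26.8 CPM (SD, n = 2) was 3.58-fold the highest other mean, and both C-28.2 libraries were well clear of the rest. Its model overlaps that of its neighbour Gs50250 in RefSeq, and the strand setting of the counts is not given in the sources used here, so its reads cannot be kept apart from those of the neighbour with certainty. Gs56200 was measured at 303 (culture A) and 354 CPM (C) in C-28.2, beside 112 (B) and 97.4 (C) in H-42, 123 (A), 116 (B) and 87.5 (C) in C-28.1, and 70.0 (A) and 98.9 (C) in H-46. The gap between its C-28.2 libraries was small beside their gap to the others, and the C-28.2 mean of 329 ± 36.4 CPM (SD, n = 2) was 3.02-fold the highest other mean.

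**Figure D2:**
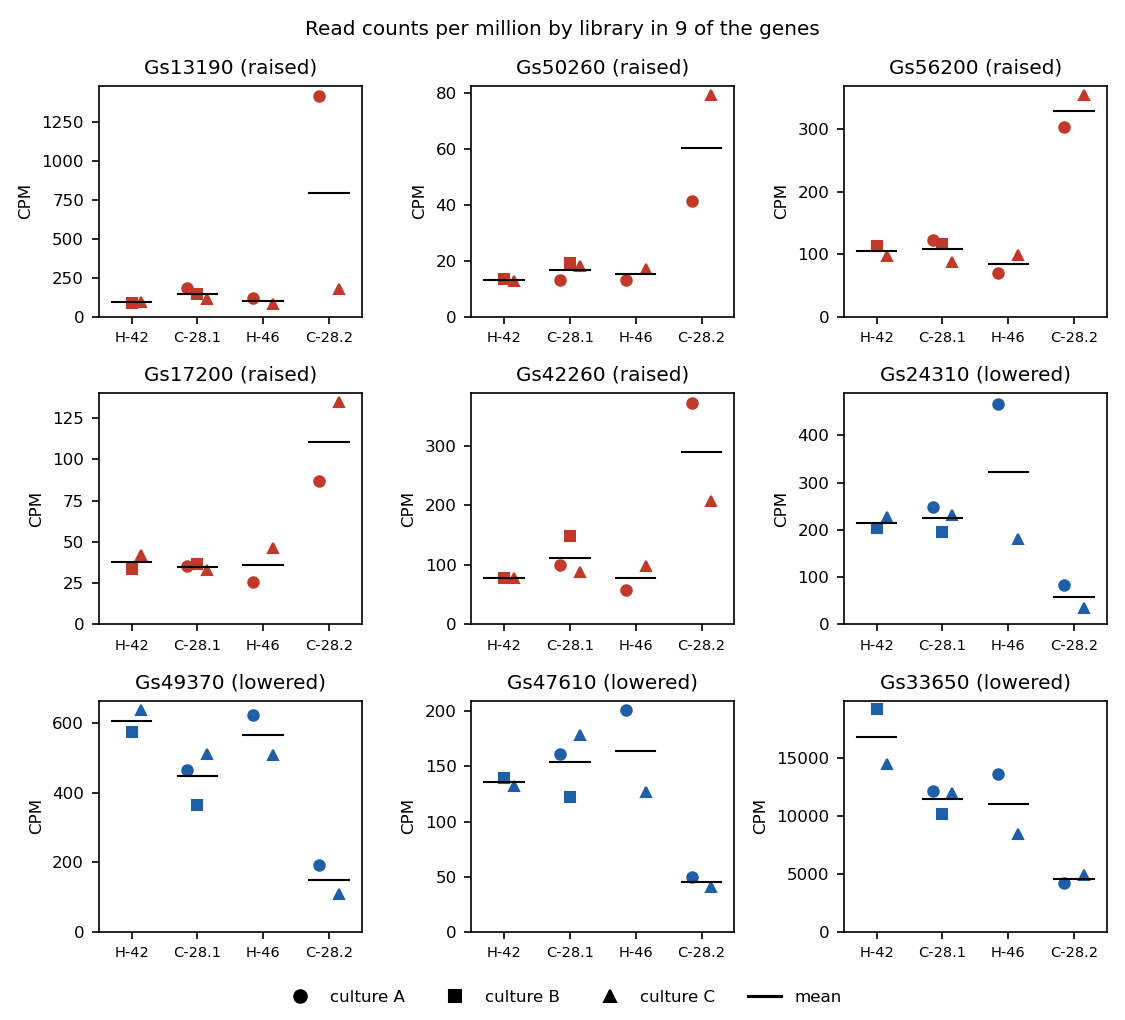
CPM (linear axis from 0) in each library for 9 of the genes, with circles for culture A, squares for culture B, triangles for culture C and a bar for the mean of each sampling. In Gs13190 the C-28.2 mean lies between 1 high library (1418 CPM) and 1 low one (176 CPM), and in the other 8 genes shown both C-28.2 libraries lie on one side of all other libraries.

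Among raised genes, the most abundant per length in C-28.2 were Gs54520 (2927 CPM per kilobase), Gs57470 (1671), Gs42990 (1627), Gs29510 (1474) and Gs13580 (1073), all without a product name. In Gs54520 the level was 1367 (culture A) and 2152 CPM (C) in C-28.2, beside 605 (B) and 625 (C) in H-42, 518 (A), 619.9 (B) and 548 (C) in C-28.1, and 278 (A) and 580.5 (C) in H-46. C-28.2 C was the highest library and H-46 A the lowest. Gs57470 had 1661 (culture A) and 1862 CPM (C) in C-28.2, beside 645 (B) and 632 (C) in H-42, 718 (A), 723 (B) and 501 (C) in C-28.1, and 298 (A) and 572 (C) in H-46, again with H-46 A lowest and with similar values in both C-28.2 libraries. For Gs29510 the libraries gave 689 (culture A) and 1024 CPM (C) in C-28.2, beside 245 (B) and 266 (C) in H-42, 230.0 (A), 340.5 (B) and 277 (C) in C-28.1, and 116 (A) and 299 (C) in H-46. Gs42990, whose model overlaps that of Gs43000 and is uncertain for the same reason as Gs50260, had 1027 and 1039 CPM in C-28.2 against 196 to 450 elsewhere. Gs13580 had 730 and 1311 against 212 to 516. In all 5 genes H-46 A was the lowest of the 9 libraries.

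Of the remaining raised genes, 2 are hypothetical proteins. Gs01650 was measured at 143 and 217 CPM in C-28.2 (A and C) and at 48.8 to 78.2 CPM elsewhere, and Gs04630 at 61.8 and 62.6 against 18.1 to 39.0. Gs30570 and Gs30580 are next to each other on the genome, the only members that are neighbours. Gs30580 had 54.0 and 56.3 CPM in C-28.2 and 11.6 to 36.3 elsewhere, and Gs30570 had 62.9 and 58.0 against 22.7 to 37.4, so in both the 2 cultures were close. Gs14760 had the flattest pattern before C-28.2, with means of 46.3, 46.6 and 46.6 CPM in H-42, C-28.1 and H-46 and a span of 0.01. Its C-28.2 libraries had 109.7 and 97.8 CPM. Gs06260 had 239 and 143 CPM in C-28.2, higher in culture A, and 51.3 to 84.1 elsewhere.

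The other raised genes without a product name were Gs59100, Gs18880, Gs59980, Gs21700, Gs29760, Gs43560, Gs49820, Gs27790, Gs20630, Gs24500, Gs63000, Gs18450 and Gs25020. Their distances lay between 1.04 (Gs25020) and 1.40 (Gs59100), and their C-28.2 means between 29.4 CPM (Gs63000) and 373 CPM (Gs43560). In each of them both C-28.2 libraries were above the other 7, and H-46 A was below H-46 C. The gap was narrow in some: in Gs24500 the lower C-28.2 library had 129 CPM and the highest other library, H-46 C, 116 CPM, and in Gs63000 the same libraries had 20.5 and 18.1 CPM. The raised genes just inside the threshold were Gs57170 (distance 1.006) and Gs59910 (1.002), and those just outside were Gs01450 and Gs12930 (0.991 each). Gs01450 had a mean of 13.5 CPM in C-28.2 and 6.33 CPM in H-42, the highest other sampling, and Gs12930 had 64.2 CPM against 31.0 CPM in C-28.1, so the threshold does not mark a break in the values.

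Over the 33 raised genes the median distance was 1.19, with a median of 151.0 CPM in C-28.2 and 60.3 CPM over the other 3 samplings. Both C-28.2 libraries lay above all other libraries in 32 of the 33. Over all expressed genes the share was 10.9%, and since the rule used the same values nothing is read from the difference.

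The lowered genes were fewer, on the whole longer, and almost without names. The 1 with a product name was Gs53260, a DnaJ homolog of subfamily C member 6. Proteins of the DnaJ group stimulate heat shock chaperones, and in mammals the member of that name, auxilin, works in the uncoating of clathrin vesicles. Its levels were 105 (culture A) and 76.3 CPM (C) in C-28.2, beside 205 (B) and 174 (C) in H-42, 170.5 (A), 179.7 (B) and 199 (C) in C-28.1, and 262 (A) and 181 (C) in H-46. Both C-28.2 libraries were below all others, with a distance of -1.02 that only just met the rule.

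The largest distances among lowered genes belonged to Gs24310, Gs49370 and Gs47610. Gs24310 had 82.5 (culture A) and 34.1 CPM (C) in C-28.2, beside 203 (B) and 227 (C) in H-42, 247 (A), 194 (B) and 231 (C) in C-28.1, and 467 (A) and 179 (C) in H-46. The C-28.2 mean of 58.3 ± 34.2 CPM (SD, n = 2) was 3.68-fold lower than the lowest other mean, and H-46 A was far above H-46 C. For Gs49370 the values were 191 (culture A) and 108 CPM (C) in C-28.2, beside 574 (B) and 638 (C) in H-42, 466 (A), 364 (B) and 511 (C) in C-28.1, and 622 (A) and 509 (C) in H-46. Both cultures were low in C-28.2, culture C more than culture A. Gs47610 had 49.4 (culture A) and 41.0 CPM (C) in C-28.2, beside 139.9 (B) and 132 (C) in H-42, 161 (A), 122 (B) and 179 (C) in C-28.1, and 202 (A) and 127 (C) in H-46. Here the C-28.2 cultures lay close together and 3.01-fold, by their mean, under the lowest other mean.

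Gs33650 was the most abundant of the 48 before C-28.2, at 7180 CPM per kilobase over the first 3 samplings and 2487 CPM per kilobase in C-28.2. The libraries gave it 4162 (culture A) and 4894 CPM (C) in C-28.2, beside 19166 (B) and 14442 (C) in H-42, 12103 (A), 10158 (B) and 11948 (C) in C-28.1, and 13610 (A) and 8423 (C) in H-46. Its level was highest in H-42, lower and similar in C-28.1 and H-46, and lowest in C-28.2. The first 3 means spanned 0.64, close to the limit of 0.7, and the C-28.2 mean of 4528 ± 518 CPM (SD, n = 2) was 2.43-fold under the lowest of them. Gs56520 had 24.7 and 26.7 CPM in C-28.2 against 64.6 to 106 CPM elsewhere, Gs52740 had 101 and 63.9 against 197 to 418, Gs30510 had 129 in both cultures against 278 to 581, and Gs31430 had 160.4 and 111 against 276 to 563. In these 4 genes, as in Gs24310, the highest library was H-46 A.

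The remaining lowered genes had smaller distances or were scarce. Gs62590 had 70.7 and 67.5 CPM in C-28.2 and 124 to 193 elsewhere, Gs59560 had 13.9 and 10.8 against 23.1 to 32.1, and Gs15760 had 61.4 and 45.6 against 82.4 to 146. Gs62260, Gs27120 and Gs56050 rested on few reads in C-28.2 C, down to 13, 6 and 23 counts, and in each the C-28.2 cultures were far apart. Gs62260 had 9.12 CPM in C-28.2 A and 2.41 CPM in C-28.2 C, and C-28.1 A, with 7.05 CPM, lay between them, which made it the 1 lowered gene with overlap. Gs27120 had 4.94 and 1.11 CPM against 5.52 to 14.8, and Gs56050 had 10.6 and 4.26 against 12.0 to 21.0. Those just inside the threshold were Gs56050 (distance -1.008) and Gs53260 (-1.018). Just outside were Gs38230, whose distance rounds to -1.0, with means of 80.1 CPM in C-28.2 and 156 CPM in C-28.1, and Gs36480 (-0.99), with 52.0 CPM against 105 CPM in H-42.

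Over the 15 lowered genes the median distance was -1.24, with a median of 58.3 CPM in C-28.2 and 166 CPM over the other samplings. Both C-28.2 libraries lay below all others in 14 of the 15, against 9.10% of all expressed genes, and this too was fixed by the rule.

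The difference between the cultures of C-28.2 was not used by the rule. The raised genes differed between culture A and culture C by a median of 0.42 in either direction and the lowered by 0.46, beside 0.39 over all expressed genes. More than a 2-fold gap was seen in 1 raised gene (Gs13190) and 4 lowered genes, against 8.54% of all expressed genes. With their sign, the differences of culture A minus culture C had medians of -0.16 in the raised and 0.46 in the lowered genes, beside 0.19 over all. Culture A was the higher in 11 of 33 raised and 12 of 15 lowered genes, beside 62.9% of all expressed genes. Only 2 cultures were sampled at C-28.2, so no test was made of these differences.

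To read the pattern in libraries the choice had not used, the rule was applied again without 1 culture and the genes so chosen were followed in that culture. Without culture C, 29 raised genes were chosen on 5 libraries, 11 of them among the 33. In culture C itself, C-28.2 was above the other 3 libraries in 25 of the 29, where 23.3% of all expressed genes were, and by 1 or more in 6, where 1.76% were. Their median distance in culture C was 0.71, from -0.61 to 2.07, against -0.49 over all expressed genes. Only 3 lowered genes were chosen in this way (Gs56520, Gs47610 and Gs49370 lie among the 15). All 3 were below in culture C (30.7% of all expressed genes) and by 1 or more (2.69%), with a median of -1.61 against 0.36 over all expressed genes.

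Without culture A, 68 raised genes were chosen on 6 libraries, 22 of them among the 33. In culture A, which has no H-42 library, C-28.2 was above C-28.1 and H-46 in 65 of the 68 (33.8% of all expressed genes) and by 1 or more in 25 (1.75%), with a median of 0.82. Of 84 lowered genes chosen without culture A, 12 of them among the 15, 19 were not below in culture A (71.9% of all expressed genes were not). The other 65 were below, but by 1 or more in only 10 of the 84 (1.09% of all expressed genes), and the median was -0.35. Over all expressed genes the medians of the same distances in culture A were -0.27 on the raised side and 0.32 on the lowered side. C-28.2 C is also the library with the strongest relation to gene length, and the part of that relation in these counts was not tested. The numbers of genes chosen depended on the cultures: with C-28.2 A left out and all other libraries kept, the rule gave 65 raised and 103 lowered genes, and with C-28.2 C left out 46 and 15.

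**Figure D3:**
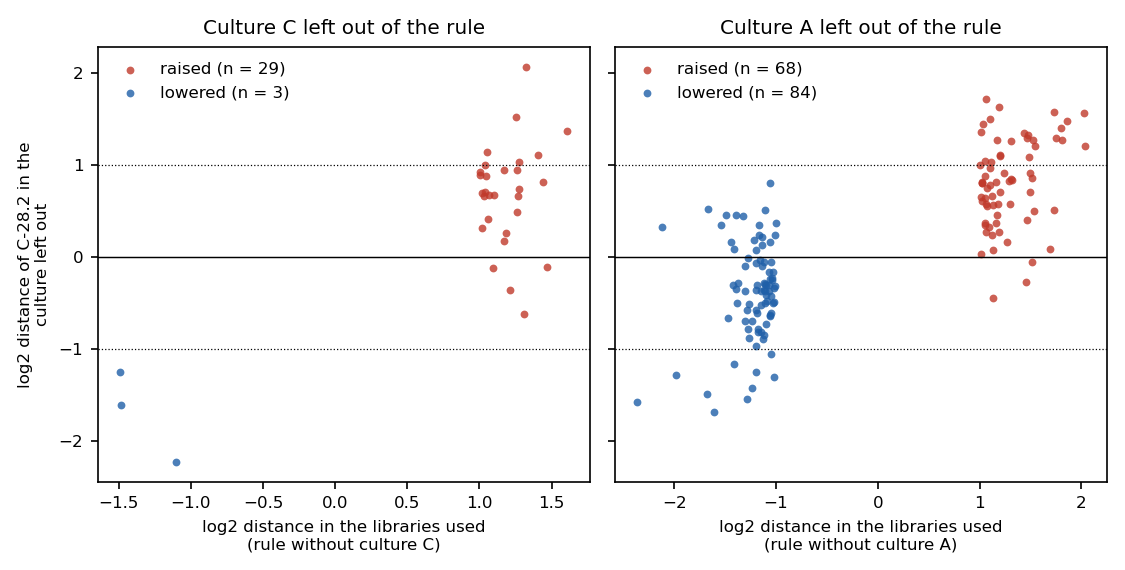
Genes chosen by the rule without culture C (left) or without culture A (right), with their distance in the libraries used (horizontal, log2) and in the culture left out (vertical, log2), raised genes in red and lowered genes in blue. Dotted lines mark a distance of 1 either way. On the left 25 of 29 raised and 3 of 3 lowered genes lie on their own side of 0, and on the right 65 of 68 and 65 of 84.

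The most stable members can be named from leaving out each of the 9 libraries in turn. Of the raised genes, 7 met the rule every time: Gs50260, Gs56200, Gs17200, Gs06260, Gs59100, Gs21700 and Gs14760. The lowered genes Gs49370, Gs47610 and Gs56520 did so as well. Leaving out libraries does not settle whether reads of Gs50260 come from the overlapping gene Gs50250. Gs20630 was the least stable and met the rule in 4 of the 9 cases. Prefoldin subunit 2 (Gs17200) is thus the only member with a product name other than hypothetical that did not depend on any single library.

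The 2 cultures of H-46 differed in these genes along the same axis. The rule used the mean of H-46 and not the difference of its libraries. Raised genes were lower in H-46 A than in H-46 C in 29 of 33, where 39.4% of all expressed genes were, and lowered genes were higher in 15 of 15, where 60.5% were. The median difference of culture A minus culture C was -0.63 in the raised and 0.53 in the lowered genes, against 0.19 over all. In the gene of prefoldin subunit 2, H-46 A had 25.8 CPM and H-46 C 46.1, and in Gs24310 the same libraries had 467 and 179 CPM. The exceptions among raised genes were Gs13190, Gs06260, Gs01650 and Gs57360. H-46 C was thus nearer to C-28.2 than H-46 A was in most of these genes. H-46 A and H-46 C also had opposite relations to gene length (rho of 0.33 and -0.26), and the part of length in this difference was not tested.

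Raised genes were short and lowered genes long. The median gene length in RefSeq (assembly ASM34128v1, start to end of the gene) was 1037 bases for raised, 1961 bases for lowered and 1418 bases for all expressed genes. Below the overall median were 24 of 33 raised genes, and above it 13 of 15 lowered genes. The shortest raised gene was Gs56200 (411 bases) and the longest lowered gene Gs52740 (4195 bases). Across 5813 expressed genes with a length, the difference of C-28.2 from the mean of the other samplings fell with length (Spearman rho = -0.22, a description across genes that share their libraries). Its median was 0.17 in the shortest genes (under 995 bases) and -0.19 in the longest (over 1995 bases). By library, with each set against the mean of all other libraries instead, the relation was near 0 in C-28.2 A (rho of 0.01). It was strong in C-28.2 C (-0.43), where the medians of the shortest and longest genes were 0.35 and -0.39.

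With a cubic trend on gene length removed from each library, an alternative chosen after the data were seen, 20 raised and 18 lowered genes met the rule. Of the 33 raised genes 15 remained, Gs17200, Gs13190 and Gs07960 among them, and Gs50260, Gs56200, Gs42260 and Gs57360 did not. Of the 15 lowered genes 10 remained, with Gs24310, Gs49370 and Gs47610 among them, and Gs33650 and Gs53260 did not. The median distance of the members after this step was 1.10 in the raised and -1.17 in the lowered genes. The raised genes that met the rule both after this step and without any single library were Gs17200, Gs06260, Gs59100, Gs21700 and Gs14760, and all 3 such lowered genes met it too.

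**Figure D4:**
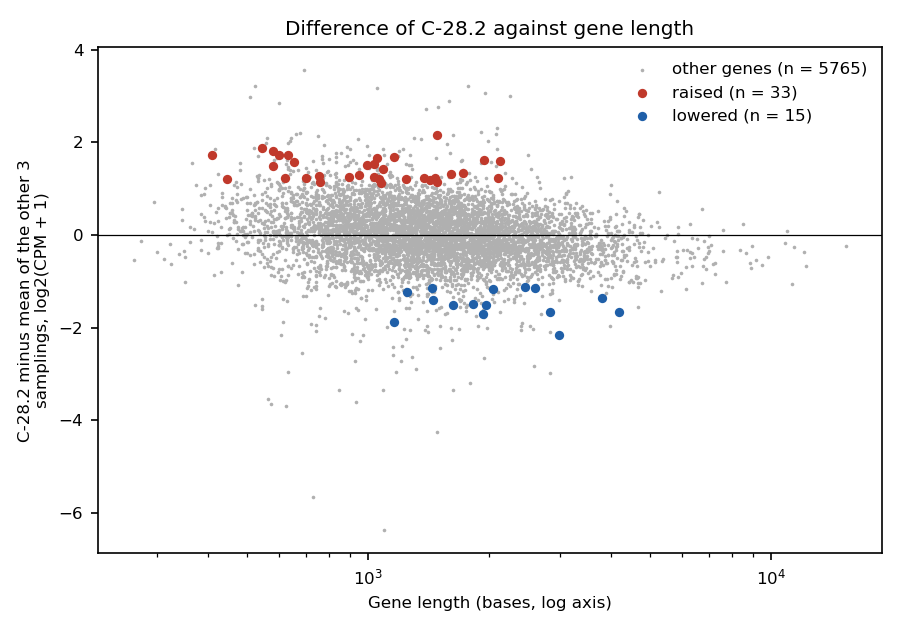
Difference of C-28.2 from the mean of the other 3 samplings (vertical, log2) against gene length (horizontal, bases, log axis) for 5813 expressed genes, raised genes in red, lowered genes in blue and other genes in grey. The red points lie mostly to the left (median 1037 bases) and the blue points to the right (median 1961 bases), while the grey cloud slopes downwards (rho = -0.22). Grey points as far from 0 as the coloured ones are genes in which the other samplings spanned 0.7 or more or 1 of them was nearer.

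Apart from Gs30570 and Gs30580, no directly adjacent genes were both members. The spacing of members over longer stretches of the genome was not measured. Of 62 expressed neighbours of raised genes, 32 were above the mean of the other samplings in C-28.2 (49.0% of all expressed genes were), with a median of 0.02. Of 28 expressed neighbours of lowered genes 19 were below it, with a median of -0.16. Over all expressed genes, of which 49.0% were above it, the median was -0.01, and the difference was not tested. Neighbours that were not members but differed by 1 or more, named after their values were seen, lay mostly on the side of the member. By the difference of C-28.2 from the mean of the other samplings, Gs29500, Gs54530, Gs20640 and Gs59900 were at 1.35, 1.01, 1.03 and 1.08. They lie beside raised Gs29510, Gs54520, Gs20630 and Gs59910. Beside lowered Gs49370, Gs56520, Gs53260 and Gs56050, the genes Gs49380, Gs56510, Gs53270 and Gs56060 were at -1.31, -1.12, -1.37 and -1.01. The other way, Gs30520 and Gs62600 beside lowered Gs30510 and Gs62590 were at 1.18 and 1.05. Beside raised genes none was 1 or more below, the furthest being Gs42980 and Gs27800 (-0.98 each) and Gs59110 (-0.97).

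Of 16 lists of genes by product keyword, such as ribosomal proteins, transporters or lipid metabolism, only chaperones and protein folding held members, Gs17200 and Gs53260. To see the level of its other genes, edgeR's quasi-likelihood test was applied to the counts in a model with 4 conditions, C-28.2 against the mean of the other 3 samplings, called at a Benjamini-Hochberg adjusted p below 0.01 with more than a 2.5-fold change. Over all 6264 genes tested, 142 (2.27%) were called higher and 116 (1.85%) lower. In the chaperone list 1 of 19 genes was called higher, Gs17200 (log2 fold change 1.64, standard error 0.24), and 0 lower. The list's median was 0.09, beside 0.00 over all tested genes. The other gene named as a prefoldin, Gs01860, had 0.12 (standard error 0.26), and the other DnaJ genes Gs08720, Gs13770 and Gs31870 had 0.29, 0.00 and -0.20. Next highest after Gs17200 were the peptidylprolyl isomerase genes Gs30690 (1.13) and Gs12320 (0.98), neither of them called. Gs30690 was high in both cold samplings, with means of 418 CPM in H-42, 1094 in C-28.1, 328 in H-46 and 1150 in C-28.2. Its distance was 0.07, and that of Gs12320 was 0.86. Another peptidylprolyl isomerase gene, Gs32000, was the lowest apart from Gs53260, at -0.54, with means of 41.9 CPM in C-28.1 and 38.6 CPM in C-28.2. The value of Gs53260 was -1.11 (standard error 0.19), short of the minimum fold change. DESeq2 called the same numbers in the list, 1 higher and 0 lower, and at an unadjusted p below 0.05 in edgeR 6 were higher and 3 lower, a share near the 41.0% of all tested genes at that p. The dehydrase gene Gs42260 matched no keyword of the lipid and steroid list, in which 2 of 35 genes tested were called higher and 1 lower, with a median of 0.17. The ribosomal protein list held no members but had the highest median of the 16 lists in this contrast, 1.31. In it 11 of 24 genes were called higher and 0 lower. The contrast uses the mean of the other 3 samplings, so genes high in both cold samplings also score high. Levels of the ribosomal genes by sampling are not given here, and none met the rule for the second cold alone. Names came only from the study's lists of splicing and expression changes in this same experiment. Shares within a keyword list are therefore not a fair match for those over all genes.

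By the same test 20 of the 33 raised genes were called higher (2.27% of all tested genes) and 8 of the 15 lowered genes lower (1.85%). The contrast is the one on which the genes were chosen, so these counts are no support for them. Log2 fold changes lay between 1.11 and 2.78 in the raised genes (median 1.37) and between -2.10 and -1.11 in the lowered (median -1.48). Their standard errors, derived from the F value in the same way, were 0.14 to 0.50. Of the genes not called, Gs27120 and Gs62260 passed the fold change but not the adjusted p, and the others did not reach the fold change. With C-28.2 C left out, which leaves 1 library of C-28.2, fewer genes were called, over all genes as well as among the 48.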

How the data were processed

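For each of 9 libraries the authors deposited raw counts of reads per gene (6538 genes, whole numbers, not normalized). The study trimmed reads, mapped them with STAR and removed reads with more than one position for its splicing analysis. Whether the counts come from those alignments, the annotation and the strand setting are not given in the sources used here. Replicate cultures were grown separately. Genes at 0 in all libraries numbered 79. Totals of 4389066 to 8989387 counts leave a large counting error in genes near 10 counts. The members and lists were chosen with earlier results of these data known. Product names came from the study's supplementary lists of alternatively spliced, differentially spliced and differentially expressed genes. A RefSeq locus tag (ASM34128v1), used for length and neighbours, was matched by 6510 genes. No sequences were used here.

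CPM used library totals (pseudocount 1). Counts were fitted with edgeR 4.0.16 (limma 3.58.1, R 4.3.3; TMM, filterByExpr) and tested on simulated data, with DESeq2 1.42.0, RLE factors, no filter, other thresholds and leaving out each library as alternatives. Named by rule were the 3 raised and 3 lowered genes of largest distance, those with a product that is not hypothetical, those in a list, and those just inside or outside the threshold. Other members are given so that each is accounted for. Culture letters pair the libraries because the study moved the same cultures through the samplings. Differences of culture A minus C in C-28.1 correlated at 0.16 with those in H-46 and at 0.18 with those in C-28.2. Those in H-46 and C-28.2 correlated at 0.60. Differences of B minus C in H-42 and C-28.1 correlated at 0.10 over 5823 genes.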

Additional observations from a re-analysis of the deposited data

How the results depend on the processing

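The number of raised genes, 33, was 21 with a span under 0.5, 5 at a distance of 1.5, 20 with the length trend removed, and 25 to 65 when each library was left out, the most without C-28.2 A. The number of lowered genes, 15, was 8 with a pseudocount of 5, 3 at a distance of 1.5, and 11 to 103 without single libraries, again the most without C-28.2 A. With TMM-scaled totals 23 raised and 19 lowered genes were found, 20 and 12 of them among the members. Other settings of the rule stayed within 1.5 times.

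In edgeR, 258 genes and 28 members were called. These became 277 and 28 with DESeq2 and 257 and 27 with RLE factors. With culture as a replicate block, the pairing gave 304 and 33 and changed no count by over 1.5 times. Leaving out single libraries gave 197 to 325 genes and 13 to 36 members, the fewest without C-28.2 C. Of 32 genes chosen without culture C, 28 lay on the same side in culture C, with 21 of 25, 29 and 22 under TMM-scaled totals and pseudocounts of 0.5 and 5, settings chosen after seeing the data. The causes of these changes were not tested. In genes with fewer than about 25 counts in C-28.2 C, depth limits the distance.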
